A study of Homo sapiens with 6 samples.

Results

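The genes described here were expressed in control AN3CA cells and lay below a low limit of expression after knockdown of *PAX2*, most with some reads left; they are called lost in that sense. A gene was a member when its TPM (a read count scaled by gene length and library total) was at least 1 in every control library and under 0.5 in every knockdown library. Of the 17471 genes listed, 65 met both thresholds. The rule left out 6 of these by name (*MIR548AA1*, *MIR3132*, *LINC00426*, *LINC00669*, *LINC00029* and *KITLG*), which gave 59 members. They were 0.484% of the 12191 genes that reached 1 TPM in every control library. The mirrored rule, expressed in every knockdown library and under 0.5 TPM in every control library, gave 42 genes, or 0.350% of 12014.

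RNA-seq was performed on 6 libraries of the established human endometrial cancer line AN3CA. All 6 came from cells transduced with a lentiviral hairpin vector and selected with puromycin. The 3 control libraries (shEV, genotype label WT) carried the empty vector and the 3 knockdown libraries (shPAX2, genotype label *PAX2* KD) a hairpin against *PAX2*. The study's text elsewhere calls its AN3CA control scrambled. A single hairpin was named for this line, so an effect of *PAX2* loss and another effect of that hairpin cannot be told apart. The same holds for any other difference between the control and knockdown cells, which were transduced with different vectors and then selected. The labels do not say whether the replicates were separate cultures, and the p-values below measure only the spread between these libraries. The cells are labelled epithelial, but of the 11 epithelial markers with a row in the table (12 listed), 10 were under 1 TPM in all 6 libraries, *EPCAM*, *KRT8* and *CDH1* among them; *KRT18* was the exception. The 3 endothelial markers with a row (8 listed) and 5 of 6 immune markers (10 listed) were also under 1 TPM throughout, and 3 of 8 stromal markers (10 listed), *COL1A2*, *COL3A1* and *ACTA2*, were above it in every library. The summed TPM of the epithelial markers was 11.2 to 13.4 in shEV and 12.4 to 18.2 in shPAX2, and that of the immune markers 1.18 to 1.81 and 1.84 to 2.61. The stromal sum was 908 to 961 in shEV and 913 to 953 in shPAX2, while its genes moved in opposite directions in all 14 other settings. *COL1A2* fell from 836 ± 24.3 to 390 ± 43.1 TPM (log2 difference -1.11; limma adjusted p = 1.75e-05). *COL3A1* rose from 35.1 ± 8.25 to 242 ± 6.14 TPM (log2 difference 2.79; limma adjusted p = 0.000122) and *ACTA2* from 65.1 ± 10.6 to 296 ± 66.0 TPM (SD, n = 3 each; log2 difference 2.16; limma adjusted p = 0.000824). The part of these markers in the results was not tested.

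*PAX2* is a paired-box transcription factor that patterns the Müllerian duct, from which the uterus forms, and the kidney. It binds DNA through its paired domain and can raise or lower the transcription of the genes it binds. A short hairpin RNA is processed in the cell into a small RNA that directs cleavage of matching transcripts.

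*PAX2* itself was not a member, because it stayed above 0.5 TPM in every knockdown library. Its shEV libraries held 4.03, 3.66 and 2.74 TPM, and its shPAX2 libraries 0.916, 0.723 and 1.17 TPM. The groups did not overlap, and 26.9% of the shEV mean was left, a log2 difference of -1.47 (SE 0.18; limma adjusted p = 0.000294). With 3 libraries on each side an exact two-sided permutation test cannot go below p = 0.1, and it gave p = 0.1. The share left was below that of *PAX2* in 54 of the 59 members. This count follows largely from the rule, which held every member, but not *PAX2*, under 0.5 TPM in shPAX2.

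The members were genes of low expression in the control. Their mean TPM in shEV ran from 1.12 to 14.2 with a median of 2.02, against a median of 24.1 for all genes expressed in every shEV library. Only 7 members had a mean of at least 5 TPM in shEV and 29 had a mean under 2. In shPAX2 the means ran from 0 to 0.440, with a median of 0.177. In bulk RNA, fewer cells that express a gene and less RNA per cell cannot be told apart. The share of the shEV level left ran from 0% to 35.1%, with a median of 6.80%. It was under 10% for 35 members and at least 20% for 9. Summed over the members, TPM was 161 to 173 in the shEV libraries and 9.84 to 11.3 in the shPAX2 libraries. By the rule every member was under 0.5 TPM in each knockdown library, and the median member stood at 0.127, 0.175 and 0.183 TPM in shPAX2 replicates 1 to 3.

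**Figure D1:**
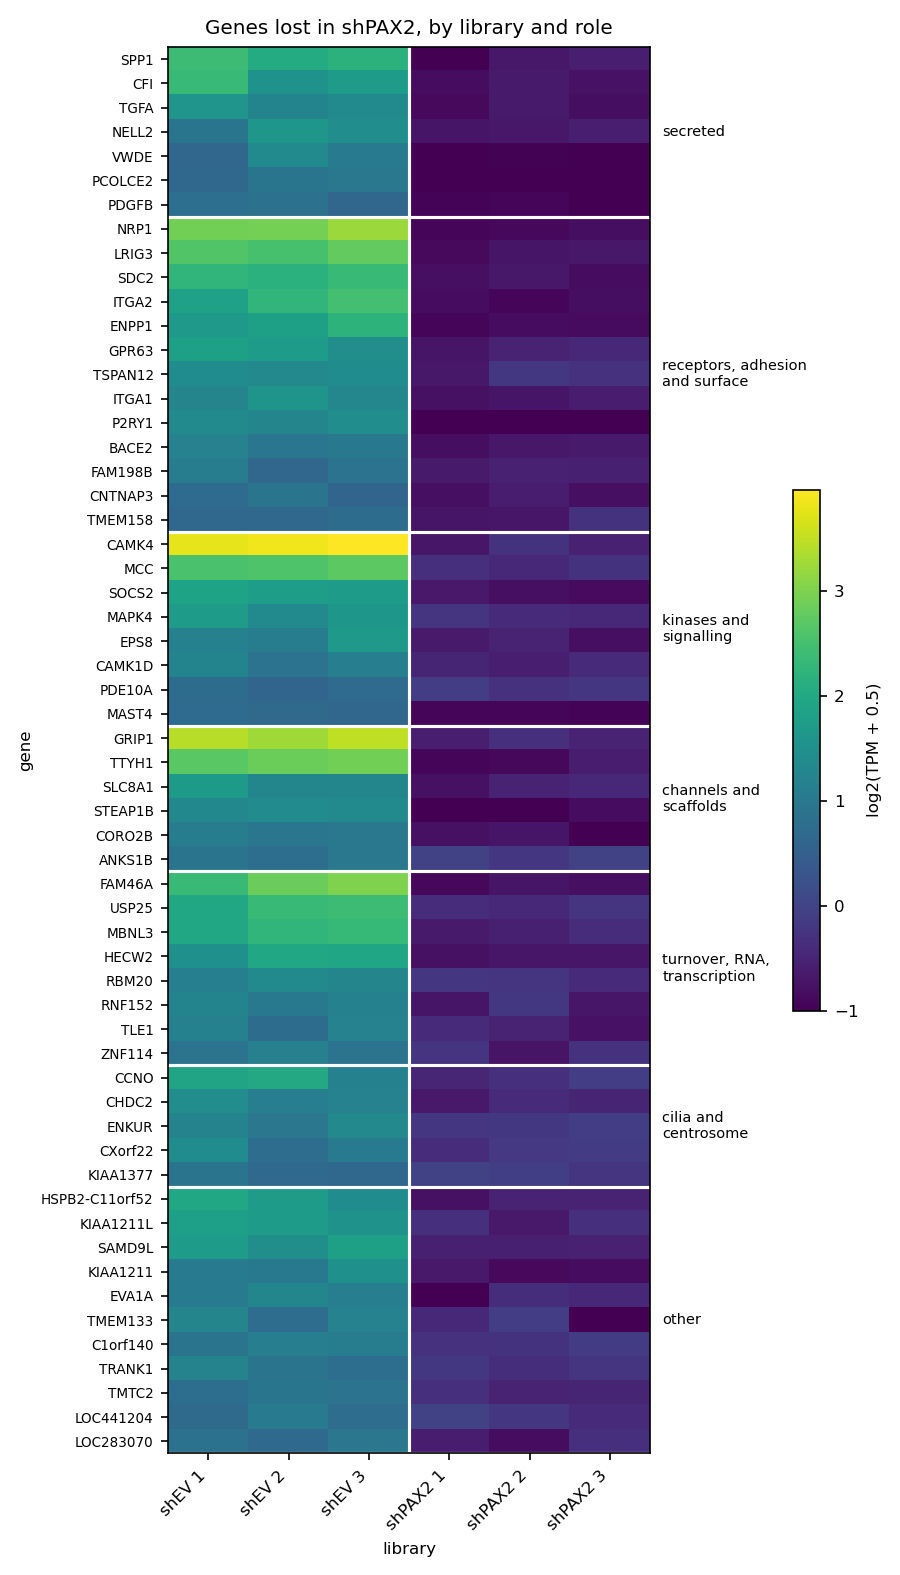
Level of 58 members (rows, grouped by role) in each library (columns), as log2(TPM + 0.5), from dark (low) to yellow (high). Every member shown is higher in the 3 shEV columns by the rule; *CAMK4* and *GRIP1* are the brightest rows, and no shPAX2 square reaches 0.5 TPM.

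The rule used this contrast, so the differences of the members are a description and carry no test. On the log2(TPM + 0.5) scale, which understates changes of low genes, they ran from -4.38 to -0.88 with a median of -1.96, where the median of all 13163 genes tested was -0.10. With limma, 55 of the 59 were called lower, which took an adjusted p under 0.05 together with a log2 difference of 1 or more in size. Of all genes tested, 4.54% were called, 3.11% lower and 1.43% higher. A gene not called could still have an adjusted p under 0.05, with a change below the fold limit. Members made up 13.4% of the 410 genes called lower and 19 of the 59 lowest log2 differences. On this scale, most strongly lowered genes were thus not members. Of the 355 non-members called lower, 313 held at least 0.5 TPM in a shPAX2 library, 36 were under 1 TPM in a shEV library, and 6 were the names left out. By the rule no member overlapped between the groups; shPAX2 lay wholly below shEV in 39% of all genes tested.

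**Figure D2:**
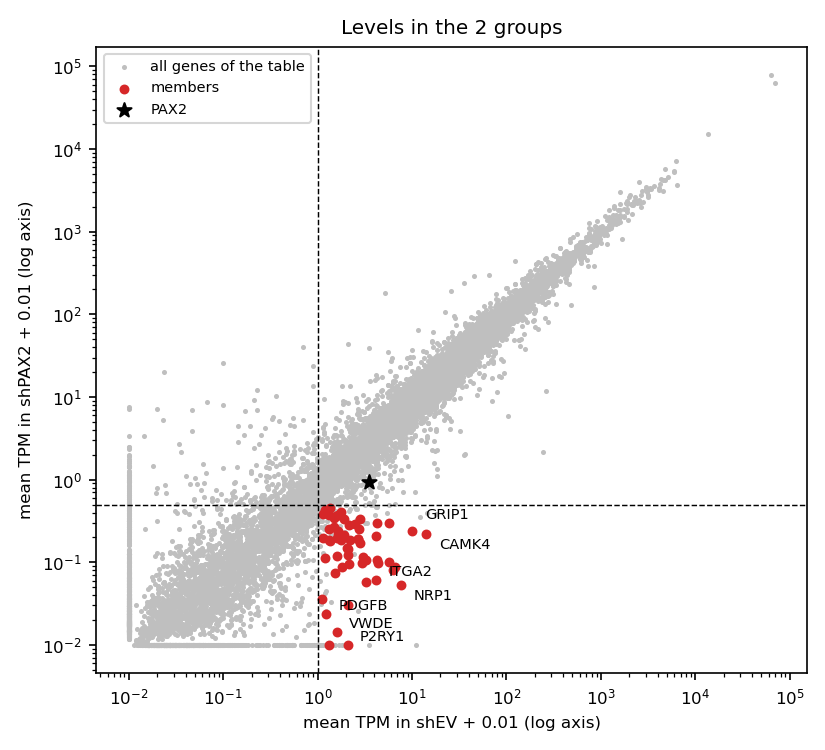
Mean TPM in shEV (x) against shPAX2 (y), both plus 0.01 on log axes, for all genes of the table (gray), the members (red) and *PAX2* (star); dashed lines mark 1 TPM in shEV and 0.5 TPM in shPAX2. The members occupy the lower right quadrant at shEV means of 1.12 to 14.2, and *P2RY1* lies on the lower edge with no read in shPAX2; gray points in that quadrant are names left out or genes past a threshold in only some libraries.

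The thresholds divided neighbouring values. The members just inside the upper one were *PDE10A*, *CNTNAP3* and *MAST4*, whose lowest shEV values were 1.03, 1.04 and 1.05 TPM, and the genes just outside it were *GATA3*, *CTNNA3* and *IFI44* at 0.995, 0.987 and 0.971. At the lower threshold *LOC441204*, *ANKS1B* and *KIAA1377* were inside with highest shPAX2 values of 0.481, 0.480 and 0.473 TPM. *TNIK*, *MFSD6* and *YBX2* were just outside at 0.512, 0.518 and 0.518. *TNIK*, a kinase of Wnt signalling, had a lowest shEV value of 9.85 TPM and was kept out by a single shPAX2 library.

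The promoters of the members were searched for a sequence core of the kind that paired domains bind. RefSeq promoters (GRCh38.p14, windows around the gene start) were matched for 44 of the 59. The paired-domain core GTCACGC, on either strand, was present in 1 of the 44 (2.27%), *TMTC2*, against 4.07% of 9800 tested genes and 2.52% of all 35116 promoters. The TATA box TATAAA was present in 3 (*C1orf140*, *FAM198B* and *FAM46A*; 6.82%), against 5.23% and 11.5%. No member held both motifs. Median GC content was 65.8% in the members and 65.3% in tested genes, and the median number of CG dinucleotides 25.5 and 27. Absence of a motif says only that these letters are not in this window. The members ranged from 0 CG dinucleotides (*SAMD9L*) to 46 (*TMEM158* and *KIAA1211L*). The following 3 promoters are printed to show that range in members described below: *TMTC2* (chr12:82686656-82686955, plus strand) is shown with the paired-domain core in capitals, and *CAMK4* (chr5:111223333-111223632, plus strand) and *P2RY1* (chr3:152834881-152835180, plus strand), the most expressed member and one with no read left, with CG dinucleotides in capitals.
TMTC2: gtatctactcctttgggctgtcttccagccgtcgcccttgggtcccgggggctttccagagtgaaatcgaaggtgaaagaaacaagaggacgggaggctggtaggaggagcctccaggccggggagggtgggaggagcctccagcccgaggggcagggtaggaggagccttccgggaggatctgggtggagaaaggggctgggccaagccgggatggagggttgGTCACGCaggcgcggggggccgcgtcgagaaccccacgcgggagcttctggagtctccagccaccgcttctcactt
CAMK4: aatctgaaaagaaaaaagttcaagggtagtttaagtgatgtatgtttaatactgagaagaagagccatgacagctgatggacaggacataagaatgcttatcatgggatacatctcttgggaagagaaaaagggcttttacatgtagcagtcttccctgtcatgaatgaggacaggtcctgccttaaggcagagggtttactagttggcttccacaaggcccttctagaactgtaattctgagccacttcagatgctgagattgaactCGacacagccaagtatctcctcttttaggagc
P2RY1: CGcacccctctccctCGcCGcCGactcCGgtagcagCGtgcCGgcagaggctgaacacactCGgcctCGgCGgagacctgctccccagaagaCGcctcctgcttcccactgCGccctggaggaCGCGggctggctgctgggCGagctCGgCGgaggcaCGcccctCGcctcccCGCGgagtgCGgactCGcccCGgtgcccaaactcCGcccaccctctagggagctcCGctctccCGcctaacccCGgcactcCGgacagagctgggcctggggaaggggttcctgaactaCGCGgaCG
The *CAMK4* window held 1 CG dinucleotide and that of *P2RY1* 32. By the rule both genes were under 0.5 TPM in all 3 shPAX2 libraries, and a link between CG content and loss was not tested.

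The 13 receptors, adhesion molecules and other membrane proteins were the largest group by role, with a median of 5.37% of the shEV level left (0% to 16.4%). *NRP1* (chromosome 10, 33466420 to 33625190, minus strand, GRCh37 as for all gene positions here) encodes neuropilin-1, a co-receptor for class 3 semaphorins and VEGF-A. *NRP1* stood at 7.02, 7.06 and 8.86 TPM in shEV and at 0.0221, 0.0376 and 0.0693 TPM in shPAX2. From 1065 reads in shEV against 9 in shPAX2 it was 196-fold lower, with an exact 95% counting interval of 103 to 430. The rule set the lowest control library above the highest knockdown library in every member. In *NRP1* these stood at 7.02 and 0.0693 TPM. Such intervals come from reads pooled over each group, so they cover counting error only and leave out the spread between libraries. They also take no account of the rule having chosen the members by these values. The reads also carry no molecular identifiers.

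*P2RY1* (chromosome 3, 152552920 to 152559228, plus strand), a G protein-coupled receptor for ADP, was one of 2 members with no read in any shPAX2 library. It stood at 2.10, 1.89 and 2.21 TPM in shEV, from 35, 52 and 62 reads, and at 0 in all 3 shPAX2 libraries. Against a floor of 3 reads over the shPAX2 group, an approximate upper 95% limit for a count of 0, it was at least 82.4-fold lower. The shPAX2 libraries were the deeper ones (19422615 to 29405787 recovered reads, against 10730909 to 18221859 in shEV), so lower depth does not accompany the zeros.

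Both integrin alpha subunits among the members bind collagen when paired with the beta subunit *ITGB1*, and their genes are adjacent on chromosome 5. *ITGA1* (52083750 to 52255039, plus strand) stood at 1.90, 2.45 and 1.96 TPM in shEV and at 0.0817, 0.108 and 0.150 TPM in shPAX2. *ITGA2* (52285170 to 52390609, plus strand) stood at 3.08, 4.32 and 5.08 TPM in shEV and at 0.0578, 0.0281 and 0.0648 TPM in shPAX2. The share left was 5.37% for *ITGA1* and 1.21% for *ITGA2*. *ITGB1* itself was abundant, with shEV at 225 ± 5.01 and shPAX2 at 240 ± 7.55 TPM (SD, n = 3 each) and an adjusted p of 0.191 in limma. Of the other collagen receptors tested (*ITGA10*, *DDR1* and *DDR2*) none was called.

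*LRIG3*, a leucine-rich repeat membrane protein, stood at 5.63, 5.23 and 6.33 TPM in shEV and at 0.0467, 0.106 and 0.122 TPM in shPAX2. *SDC2*, the heparan sulfate proteoglycan syndecan-2, stood at 4.33, 4.03 and 4.67 TPM in shEV and at 0.0750, 0.128 and 0.0588 TPM in shPAX2. In both genes the control libraries lay close together and the knockdown libraries kept 1.60% and 2.01% of their mean. Of the other syndecans, *SDC1* and *SDC3* were tested and not called, with *SDC1* at 101 ± 5.20 and 106 ± 2.84 TPM in shEV and shPAX2 (SD, n = 3 each; limma adjusted p = 0.361). *SDC3* was higher by 0.23 on the log2 scale, below the fold limit (limma adjusted p = 0.0163). *LRIG1* and *LRIG2*, the other LRIG genes, were not called. Both were lower below the fold limit (log2 differences -0.62 and -0.24, limma adjusted p = 0.0201 and 0.0335).

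*ENPP1*, an ectoenzyme that makes pyrophosphate, stood at 2.68, 3.04 and 4.11 TPM in shEV and at 0.0263, 0.0598 and 0.0551 TPM in shPAX2, with 1.44% left. The remaining membrane proteins were lower in the control. *GPR63*, a G protein-coupled receptor, averaged 2.70 ± 0.411 TPM in shEV against 0.183 ± 0.0674 TPM in shPAX2 (SD, n = 3 per group). The pairs of means that follow give shEV, then shPAX2, in the same way. *TSPAN12*, a tetraspanin that acts with the receptor *FZD4* in norrin signalling, averaged 2.12 ± 0.0811 and 0.274 ± 0.130 TPM. *FZD4*, *LRP5* and *LRP6*, its partners tested, were not called. *LRP5* and *LRP6* were lower below the fold limit (log2 differences -0.48 and -0.33, limma adjusted p = 0.00128 and 0.00465). *BACE2*, a membrane aspartyl protease, averaged 1.59 ± 0.194 and 0.109 ± 0.0381 TPM, and *FAM198B*, a Golgi membrane protein, 1.35 ± 0.288 and 0.170 ± 0.0256 TPM. *CNTNAP3*, a contactin-associated protein, averaged 1.20 ± 0.175 and 0.103 ± 0.0459 TPM; it has a near-identical copy, *CNTNAP3B*, between which reads could be divided. *TMEM158*, a membrane protein induced by RAS signalling, kept the largest share of the group at 16.4%, from 1.13 ± 0.0535 to 0.185 ± 0.126 TPM.

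All 7 secreted proteins kept under 10% of their shEV level, where 35 of all 59 members did. Their median was 2.32% and their highest share 6.46%. *SPP1*, osteopontin, stood at 4.83, 3.68 and 4.09 TPM in shEV and at 0, 0.123 and 0.169 TPM in shPAX2. *CFI*, complement factor I, which cleaves activated complement proteins, stood at 4.57, 2.41 and 2.82 TPM in shEV and at 0.0605, 0.137 and 0.0948 TPM in shPAX2. The control libraries of *CFI* differed from one another more than those of any other member, and shEV replicate 1 was the high one. The CV across control libraries was 35.1% for *CFI* and had a median of 14% over the members.

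*TGFA*, a ligand of the *EGF* receptor, stood at 2.51, 1.86 and 2.11 TPM in shEV and at 0.0455, 0.138 and 0.0713 TPM in shPAX2, with 3.93% left. *PDGFB*, a chain of platelet-derived growth factor, averaged 1.21 ± 0.131 and 0.0136 ± 0.0118 TPM, from shEV counts of 23, 40 and 33 reads and shPAX2 counts of 1, 1 and 0. *PCOLCE2*, which enhances the trimming of procollagen, was the other member with no shPAX2 read. It averaged 1.32 ± 0.196 TPM in shEV, from 12, 25 and 27 reads, and was at least 35.4-fold lower on the same floor. *VWDE*, with von Willebrand factor D and *EGF* domains, averaged 1.58 ± 0.510 and 0.00443 ± 0.00767 TPM. Its 215 shEV reads stood against 1 in shPAX2, a ratio of 357 with a 95% counting interval of 63.3 to 14150. *NELL2*, a secreted glycoprotein, averaged 2.07 ± 0.603 and 0.133 ± 0.0321 TPM.

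Known partners of the members, those of the signalling, scaffold and other groups below included, did not follow one direction. Of 64 partner genes tested, 5 were called lower (7.81%, where all genes gave 3.11%) and 3 higher (4.69%, where all genes gave 1.43%), with a median log2 difference of -0.24. The partner list was written after the members were known, without sight of its values. *EGFR*, the receptor of *TGFA*, rose from 5.87, 5.51 and 6.22 TPM in shEV to 20.2, 20.2 and 22.3 TPM in shPAX2, a log2 difference of 1.75 (SE 0.08; limma adjusted p = 9.96e-07). *HBEGF* and *EGF*, other ligands of that receptor, were not called. *FLT1*, a VEGF receptor, rose from 4.99, 2.69 and 2.68 TPM to 22.3, 45.9 and 50.1 TPM, a log2 difference of 3.30 (SE 0.42; limma adjusted p = 0.00399). *PLXNA2*, a plexin that signals with neuropilins, fell from 3.39 ± 0.524 to 1.28 ± 0.199 TPM (log2 difference -1.13).

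*PDGFA*, the other common PDGF chain, fell from 16.0 ± 1.11 to 7.65 ± 1.22 TPM, a log2 difference of -1.03. Its call was lost in 6 of 14 other settings, among them median-of-ratios scaling and the fits without shEV replicate 3 (-0.98), shPAX2 replicate 2 (-0.96) or shPAX2 replicate 3 (-0.98). *PCOLCE*, the paralog of *PCOLCE2*, rose from 6.33 ± 0.207 to 14.8 ± 2.13 TPM (log2 difference 1.16; limma adjusted p = 5.23e-05). *ADAMTS2*, a procollagen protease, fell from 4.63 ± 0.146 to 1.85 ± 0.299 TPM (log2 difference -1.14). The calls of *PLXNA2* and *ADAMTS2* were lost with a pseudocount of 1 and with quantile normalization, and those of *EGFR*, *FLT1* and *PCOLCE* were kept in all 14 settings. *PCOLCE2* and *PCOLCE* thus moved in opposite directions.

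**Figure D3:**
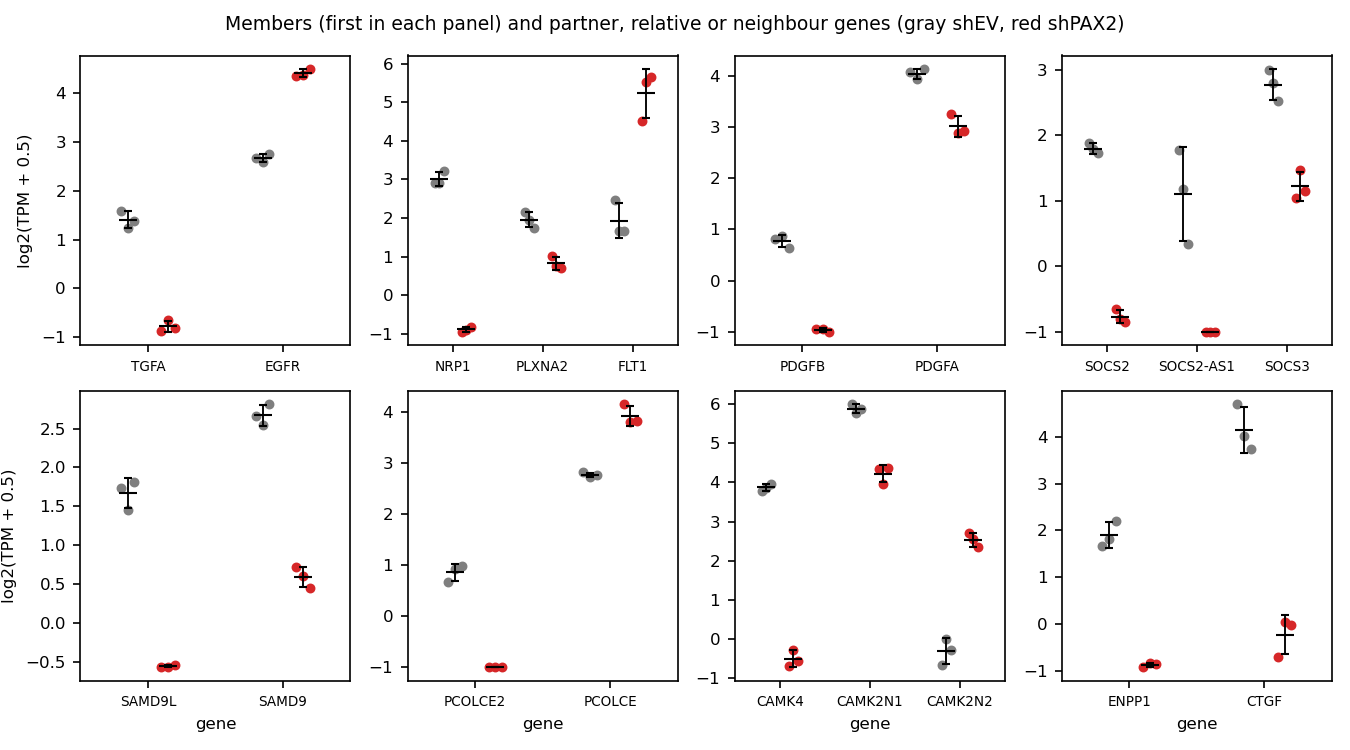
log2(TPM + 0.5) by library for 8 members (first in each panel) and partner, relative or neighbour genes, chosen for the plot with values known; gray points are shEV, red points shPAX2, and bars give the mean ± SD of 3 libraries. *EGFR*, *FLT1*, *PCOLCE* and *CAMK2N2* are higher in shPAX2 while the member beside them is lower, and *PDGFA*, *SOCS3*, *SAMD9*, *CAMK2N1* and *CTGF* are lower together with theirs.

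The 8 kinases and intracellular signalling proteins kept a median of 6.0% (1.48% to 32.9%). *CAMK4* (chromosome 5, 110559351 to 110830584, plus strand) encodes a calcium/calmodulin-dependent kinase that phosphorylates the factor CREB. It was the most expressed member, at 13.3, 14.1 and 15.1 TPM in shEV, and stood at 0.117, 0.331 and 0.183 TPM in shPAX2. It was 68.6-fold lower (95% counting interval 43.1 to 116), and its log2 difference of -4.38 was the lowest among the members. *CAMK1D*, a kinase of the CaMKI group, averaged 1.64 ± 0.266 and 0.217 ± 0.0507 TPM. Of the 5 partners *CAMKK1*, *CAMKK2*, *CAMK2D*, *CAMK2G* and *CREB1*, 0 were called with limma and 0 with voom. At an unadjusted p under 0.05, 0 were higher and 4 lower, where all genes gave 15.3% higher and 36.1% lower. Of the 5, 3 had an adjusted p under 0.05 with a change below the fold limit, and the log2 differences ran from -0.53 to 0.02.

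The small inhibitors of CaMKII moved apart. *CAMK2N1* fell from 58.4 ± 4.67 to 18.3 ± 2.77 TPM (log2 difference -1.65) and *CAMK2N2* rose from 0.321 ± 0.181 to 5.33 ± 0.729 TPM (SD, n = 3 each; log2 difference 2.85; limma adjusted p = 1.16e-05).

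*MCC* (chromosome 5, 112357803 to 112824520, minus strand), named for its mutation in colorectal cancer, stood at 5.33, 5.58 and 6.11 TPM in shEV and at 0.296, 0.240 and 0.332 TPM in shPAX2. Its 102 shPAX2 reads made this a measured residue of 5.10%, with reads in every knockdown library. *SOCS2*, which dampens growth hormone and JAK-STAT signalling, averaged 2.97 ± 0.195 and 0.0871 ± 0.0417 TPM. Of 5 JAK-STAT partners tested, *SOCS3* alone was called, falling from 6.39 ± 1.14 to 1.84 ± 0.364 TPM (log2 difference -1.55; limma adjusted p = 0.000118). *EPS8*, an actin-capping substrate of the *EGF* receptor, averaged 2.02 ± 0.554 and 0.140 ± 0.0624 TPM, and its partners *ABI1*, *SOS1* and *BAIAP2* were not called. *MAST4*, a microtubule-associated kinase, averaged 1.12 ± 0.0557 and 0.0255 ± 0.00771 TPM. *MAPK4*, an atypical MAP kinase, averaged 2.51 ± 0.400 and 0.278 ± 0.0584 TPM. *PDE10A*, a cyclic nucleotide phosphodiesterase, averaged 1.13 ± 0.0813 and 0.370 ± 0.0565 TPM and so kept 32.9%, with 120 reads in shPAX2.

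Among the 7 channels, transporters and scaffolds the median share left was 4.22%, and the range was wide (0.974% to 32.3%). *GRIP1* (chromosome 12, 66741211 to 67462942, minus strand), a scaffold with PDZ domains that holds AMPA receptors, stood at 10.3, 9.03 and 10.8 TPM in shEV and at 0.168, 0.308 and 0.203 TPM in shPAX2, or 44.4-fold lower (95% counting interval 32.9 to 61.5). Of the 7 *GRIP1* partners in the table (9 listed) only *PICK1* was high enough to test, and it was not called; the AMPA receptor genes *GRIA1*, *GRIA2* and *GRIA4* fell under the filter. *TTYH1*, a membrane protein of the tweety family, stood at 5.96, 6.70 and 6.97 TPM in shEV and at 0.0343, 0.0389 and 0.161 TPM in shPAX2. By the rule both genes were lost in every knockdown library, with shPAX2 replicate 3 highest for *TTYH1* at 3 reads.

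*STEAP1B*, of the STEAP family, averaged 2.07 ± 0.0816 and 0.0202 ± 0.0350 TPM, with 82 shEV reads against 1, a ratio of 136 with a counting interval of 23.7 to 5437. It resembles *STEAP1*, so reads could be divided between them. *STEAP1* stood at 30.2 ± 0.413 and 22.6 ± 1.89 TPM and was not called. Its log2 difference of -0.42 was below the fold limit (limma adjusted p = 0.0018). *CORO2B*, a coronin that binds actin, averaged 1.52 ± 0.0966 and 0.0644 ± 0.0577 TPM. *SLC8A1*, the sodium-calcium exchanger, averaged 2.22 ± 0.484 and 0.177 ± 0.0840 TPM. *ANKS1B*, an ankyrin repeat protein of synapses, averaged 1.36 ± 0.116 and 0.440 ± 0.0662 TPM and so kept 32.3%.

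The 8 genes of protein turnover, RNA and transcription kept a median of 9.13% (1.14% to 17.6%). *FAM46A* (now *TENT5A*), a nucleotidyltransferase acting on RNA tails, stood at 4.58, 6.57 and 7.54 TPM in shEV and at 0.0349, 0.106 and 0.0730 TPM in shPAX2. *MBNL3*, a muscleblind splicing regulator, stood at 3.46, 4.30 and 4.54 TPM in shEV and at 0.138, 0.175 and 0.277 TPM in shPAX2. *MBNL1* and *MBNL2*, the other muscleblind genes, were not called. *MBNL1* stood at 73.9 ± 3.52 and 73.0 ± 8.06 TPM. *MBNL2* was lower below the fold limit (log2 difference -0.38, limma adjusted p = 0.0178). In *FAM46A* and *MBNL3*, shEV replicate 1 was the lowest control library and, by the rule, still stood above all knockdown libraries.

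*USP25*, a deubiquitinase, stood at 3.45, 4.58 and 4.79 TPM in shEV and at 0.276, 0.239 and 0.351 TPM in shPAX2. *HECW2*, a ubiquitin ligase, stood at 2.31, 3.43 and 3.28 TPM in shEV and at 0.0849, 0.118 and 0.118 TPM in shPAX2. They kept 6.75% and 3.56%. *RNF152*, a lysosomal ubiquitin ligase, averaged 1.71 ± 0.185 and 0.197 ± 0.149 TPM. *TLE1*, a Groucho corepressor, averaged 1.58 ± 0.349 and 0.186 ± 0.0844 TPM. Of the other TLE genes *TLE2*, *TLE3*, *TLE6* and *AES* were tested and none was called. Below the fold limit, *TLE2* (-0.67), *TLE6* (-0.60) and *AES* (-0.26) were lower (limma adjusted p = 0.00189, 0.0130 and 0.0178), and *TLE3* was not. *RBM20*, a splicing regulator of titin, averaged 1.90 ± 0.206 and 0.322 ± 0.0581 TPM, and *ZNF114*, a zinc finger protein, 1.48 ± 0.226 and 0.260 ± 0.139 TPM.

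The 5 genes of cilia and centrosomes had the highest median share left, 22.0% (10.7% to 35.1%), and none fell under 10%. The rule held shPAX2 under 0.5 TPM, so members low in shEV can show larger shares. The median of these 5 in shEV was 1.77 TPM, against 2.02 over all members. A difference between roles was not tested. *CCNO*, a cyclin needed to form multiciliated cells, averaged 2.84 ± 0.922 and 0.323 ± 0.101 TPM. *ENKUR*, the ciliary protein enkurin, averaged 1.77 ± 0.288 and 0.394 ± 0.0388 TPM. *CHDC2* averaged 1.89 ± 0.266 and 0.203 ± 0.0662 TPM and *CXorf22* 1.65 ± 0.478 and 0.362 ± 0.0808 TPM; both symbols are older names of *CFAP47*, a ciliary gene, so these rows are not independent. *KIAA1377* (now *CEP126*), a centrosomal gene, averaged 1.20 ± 0.152 and 0.422 ± 0.0645 TPM and kept the largest share of all members, 35.1%. Of the multiciliated cell regulators in the table only *MCIN* was tested, and it was not called.

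**Figure D4:**
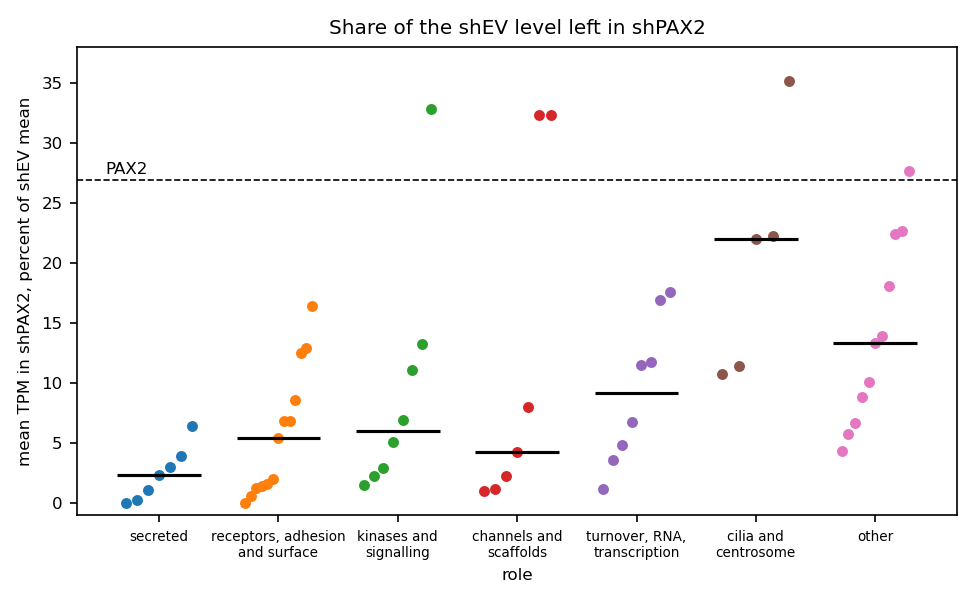
Mean TPM in shPAX2 as a percent of the shEV mean (y) for each member (point), by role (x); bars are medians and the dashed line is *PAX2* at 26.9%. All 7 secreted proteins lie under 10%, the 5 cilia and centrosome genes lie at 10.7% or more, and 5 members lie above the line. The rule held every member, but not *PAX2*, under 0.5 TPM in shPAX2, so the place of the points against the line follows largely from it. The rule also limits the shares themselves, and a difference between roles was not tested.

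The last 11 members had other or little known roles and kept a median of 13.3% (4.31% to 27.7%). *SAMD9L*, an interferon-inducible gene, averaged 2.69 ± 0.410 and 0.179 ± 0.00669 TPM. *KIAA1211* (*CRACD*), which regulates actin capping, averaged 1.79 ± 0.463 and 0.0771 ± 0.0469 TPM, and its paralog *KIAA1211L* 2.74 ± 0.282 and 0.243 ± 0.0946 TPM. *EVA1A*, an autophagy regulator, averaged 1.74 ± 0.178 and 0.175 ± 0.153 TPM. *TMTC2*, which adds mannose in the endoplasmic reticulum and whose promoter is printed above, averaged 1.33 ± 0.0876 and 0.240 ± 0.0609 TPM. The paralogs *KIAA1211* and *KIAA1211L*, on chromosomes 4 and 2, were thus both lost.

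*TRANK1*, a repeat protein, averaged 1.48 ± 0.311 and 0.331 ± 0.0434 TPM. *HSPB2-C11orf52*, a readthrough transcript, averaged 2.80 ± 0.620 and 0.160 ± 0.0649 TPM, and its reads cannot be separated from those of *HSPB2*, which it overlaps. *TMEM133* averaged 1.64 ± 0.368 and 0.229 ± 0.22 TPM. It is now annotated within *ARHGAP42*, which itself fell from 4.80 ± 0.541 to 0.778 ± 0.106 TPM (log2 difference -2.05). Noncoding or unplaced rows completed the group. *C1orf140* (now *LINC02817*) averaged 1.56 ± 0.170 and 0.354 ± 0.0496 TPM, *LOC441204* (now *LINC02981*) 1.32 ± 0.242 and 0.365 ± 0.115 TPM, and *LOC283070* 1.30 ± 0.172 and 0.174 ± 0.118 TPM.

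*SAMD9L* lies next to its paralog *SAMD9* on chromosome 7, and both were lowered. *SAMD9* fell from 5.84, 5.33 and 6.53 TPM to 1.14, 1.02 and 0.867 TPM (log2 difference -2.08, SE 0.13; limma adjusted p = 8.53e-06). Among 26 tested genes of an interferon response list, 10 were called lower and 0 higher with limma, with a median of -0.73, where 3.11% of all genes were called lower. At an unadjusted p under 0.05, 24 were lower (92.3%, where all genes gave 36.1%) and 0 higher (all genes 15.3%). With voom 10 were called lower (38.5%, where all genes gave 4.37%) and 0 higher (all genes 1.7%). *IFI6* fell from 51.1 ± 2.17 to 12.3 ± 1.26 TPM and *BST2* from 135 ± 14.9 to 49.4 ± 1.04 TPM (SD, n = 3 each). Over all the gene lists, members left out, 26 of 178 genes were lower (14.6%) and 12 higher (6.74%), with a median of -0.37. All genes tested gave 3.11% lower and 1.43% higher, with a median of -0.10. In the list of Müllerian and kidney development, 3 of 14 tested genes were lower and 5 higher. The lists covered signalling, adhesion, matrix and developmental genes and were drawn up with earlier results known.

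Residual reads allowed most losses to be measured rather than bounded. The members had 49 to 1233 reads each over the shEV libraries (median 211) and 0 to 135 over the shPAX2 libraries (median 21). A read was present in every shPAX2 library for 50 members, and 7 had at most 3 reads in each. For the 57 members with a read in shPAX2, the fold lower ran from 2.72 to 357, with a median of 14.9. Reads are the smallest whole numbers that fit the TPM values. For 15 members the annotated length exceeded the length these reads imply, by 2.61-fold for *SPP1* and 3.96-fold for *CAMK4*, so true reads could be a multiple or the gene model used shorter.

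The positions of 57 members were taken from GENCODE 44 on GRCh37. Chromosome 12 held 7 of them and chromosome 5 held 6, from 5.27% and 4.7% of the genes tested, and chromosomes 13, 14, 16, 17 and 20 held 0. Chromosome 6 held 4 (*FAM46A*, *GPR63*, *ENPP1* and *PDE10A*), although its tested genes had a median log2 difference of 0.39, the only positive one among chromosomes. The members were long. Of the 55 protein-coding member genes, 61.8% spanned at least 100 kb, against 19.0% of 11561 tested protein-coding genes, and their median span was 118 kb against 33.1 kb. The 40 protein-coding genes of the mirrored rule had a median of 31.7 kb, and 35% reached 100 kb. Among tested genes of at least 100 kb, 5.83% were called lower and 2.14% higher, against 2.51% and 1.19% of shorter genes. The part of gene length in the loss was not tested.

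To see whether losses extended to adjoining genes, which the rule did not choose, the nearest listed gene on each side of each member was examined. Of 78 such genes tested, 7 were called lower (8.97%, where all genes gave 3.11%) and 0 higher, with a median log2 difference of -0.20 against -0.10. At an unadjusted p under 0.05 in limma, 38 were lower (48.7%, where all genes gave 36.1%) and 10 higher (12.8%, where all genes gave 15.3%). With voom 8 were called lower (10.3%, where all genes gave 4.37%) and 0 higher. Without genes that overlap a member, 5 of 72 were lower (6.94%). At the next places along the chromosome the counts were 2 of 76, 5 of 90, 4 of 85 and 2 of 84. Of the 57 placed members 8 had a nearest neighbour that was called lower. The median distance to neighbours that do not overlap was 93.9 kb.

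**Figure D5:**
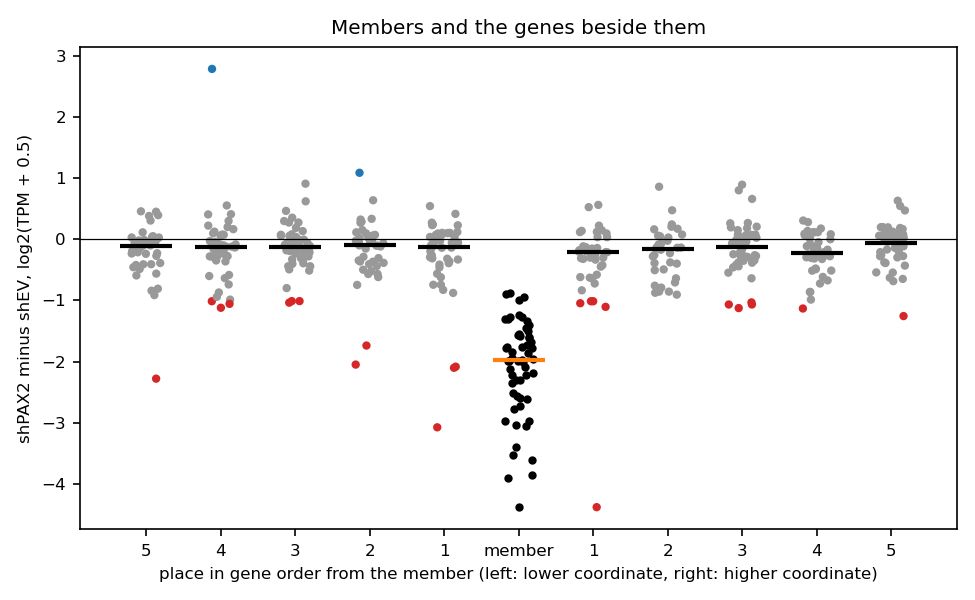
Difference shPAX2 minus shEV in log2(TPM + 0.5) for the members (middle, black, bar in orange) and for tested genes at each of 5 places on either side; red points were called lower, blue higher, gray not called, and bars are medians. The median of all 59 members is -1.96, and the 57 with a position are plotted. With both sides pooled, the nearest place has a median of -0.20 and places 2 to 5 have medians of -0.15 to -0.08. All genes tested gave -0.10.

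The neighbour with the largest difference was *CTGF*, a matricellular protein gene 53.0 kb from *ENPP1* on chromosome 6. It fell from 25.4, 15.7 and 12.9 TPM in shEV to 0.112, 0.538 and 0.481 TPM in shPAX2 (log2 difference -4.38, SE 0.30; limma adjusted p = 9.48e-05). *CTGF* escaped membership through the value of 0.538. *HSPB2* fell from 16.9 ± 2.79 to 1.59 ± 0.508 TPM and shares reads with its readthrough. *SOCS2-AS1*, antisense to *SOCS2*, fell from 2.92, 1.77 and 0.772 TPM to 0 in all 3 shPAX2 libraries (log2 difference -2.10). The strand setting of the counting is not given in the sources used here, so reads of *SOCS2* and its antisense partner might be exchanged.

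*HS6ST2*, a heparan sulfate sulfotransferase beside *MBNL3*, fell from 0.791 ± 0.192 to 0.0977 ± 0.0599 TPM (log2 difference -1.11), a call lost with a pseudocount of 1. *PDCD4*, beside *RBM20*, fell from 32.6 ± 3.33 to 15.6 ± 2.28 TPM (log2 difference -1.05), a call lost under median-of-ratios scaling and quantile normalization and without shEV replicate 3 (-0.97), shPAX2 replicate 2 (-0.99) or shPAX2 replicate 3 (-0.99). The last was *PRRG1* (log2 difference -1.01), beside *CFAP47*, whose call was lost without shEV replicate 3 (-0.92) or shPAX2 replicate 3 (-0.99) and in 3 other settings. With *SAMD9*, which lies 12.0 kb from *SAMD9L*, the calls of *CTGF*, *HSPB2* and *SOCS2-AS1* were kept in every setting that tested them.

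Genes sharing a symbol stem with a member were the other comparison outside the rule. Of 109 tested, 9 were lower (8.26%, where all genes gave 3.11%) and 6 higher (5.5%, where all genes gave 1.43%). Their median log2 difference was -0.20 against -0.10. The sets overlap: *SAMD9*, *HSPB2* and *SOCS2-AS1* were also counted among the neighbours, and *SAMD9*, *SOCS3* and *PCOLCE* among the partners. Besides those above, *PDE3B*, a phosphodiesterase like *PDE10A*, fell from 23 ± 1.77 to 6.04 ± 0.321 TPM (log2 difference -1.84; limma adjusted p = 8.82e-07). *SAMD5* fell from 3.19 ± 0.0686 to 0.586 ± 0.128 TPM (log2 difference -1.77). *EVA1C*, of the family of *EVA1A*, rose from 0.0964, 0.117 and 0.0573 TPM to 25.5, 25.2 and 26.0 TPM (log2 difference 5.47; limma adjusted p = 7.65e-09). *EVA1C* was thus higher in every knockdown library, where *EVA1A* was lower.

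*MAPK8IP2*, a scaffold of JNK signalling, rose from 6.0 ± 0.713 to 27.3 ± 2.19 TPM (log2 difference 2.10). *PDE6H* rose by 1.09 on the log2 scale, and lost its call without shEV replicate 2 (0.89) or shPAX2 replicate 2 (0.97). *HSPB7* rose by 1.05, and lost its call with a pseudocount of 1 and without shEV replicate 3 (0.99), shPAX2 replicate 1 (0.9986) or shPAX2 replicate 3 (0.96). A shared stem is a matter of naming, and CXorf genes form no family.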

How the data were processed

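The authors deposited TPM values for 17471 genes named by symbol. The submitters' processing notes name bcl2fastq, STAR, Subread, featureCounts, edgeR and hg19, without versions. The labels give stranded total RNA libraries; the strand setting of the counting is not given in the sources used here. Within each gene the deposited TPM values were ratios of whole numbers (100% of genes, relative deviation at most 7.15e-14), so reads were recovered up to a factor per gene. The libraries held 10730909, 17359110 and 18221859 (shEV) and 29405787, 26816117 and 19422615 (shPAX2) recovered reads.

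The 13163 genes that reached 0.5 TPM in 3 or more libraries entered limma 3.58.1 in R 4.3.3 (lmFit and eBayes, trended and robust prior) as log2(TPM + 0.5), two-sided, with Benjamini-Hochberg adjustment. A call required an adjusted p under 0.05 together with a log2 difference of 1 or more in size. Because TPM values of a library share one total, changes in abundant genes move all others. Fold intervals were exact 95% intervals on pooled reads (scipy 1.17.1), with a floor of 3 reads over the group. The fit and the recovery were tested on simulated data. Symbols were matched to GENCODE 44 directly (15324) or through an older symbol (1234). Stems under 3 letters or shared by more than 30 genes were not used for relatives.

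Results for 1 member and 1 partner gene are not reported here. The other 58 members were named once, with values in each library for the 15 most expressed in shEV and those in a gene list, and for *P2RY1*; of neighbours and relatives up to 6 called genes in each direction by size; genes beyond that, *PRRG1*, *CAMK2N1*, *ARHGAP42*, *STEAP1*, *IFI6*, *BST2*, the markers and the partner genes, were named after their values were seen. The members and lists were chosen with earlier results of these data known. Other settings covered thresholds, pseudocount, filter, scaling, voom, the replicate number as a block and leaving out each library.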

Additional observations from a re-analysis of the deposited data

How the results depend on the processing

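The number of members was 30 with a limit of 0.25 TPM in shPAX2, 22 with 2 TPM in shEV, 56 after median-of-ratios scaling (all 56 among the 59) and 62 to 69 without each library in turn. The median log2 difference of the members was -1.91 under median-of-ratios scaling, -3.18 with a pseudocount of 0.1, -1.36 with a pseudocount of 1, -1.83 under quantile normalization, -3.90 with voom on the recovered reads, and -1.93 to -1.84 without each library in turn; the pseudocount sets the size for genes this low. For the 18 members given by library, none of 252 refitted values changed sign. The rule left no overlap between the groups in any member, so this outcome was all but fixed in advance and is no support. *P2RY1* was added to the 18 members after seeing the data. Partner calls fell from 8 to 5 with a pseudocount of 1 and to 5 under quantile normalization, settings chosen for that list after seeing the data, because *PDGFA*, *PLXNA2* and *ADAMTS2* lost the fold threshold. Neighbour calls ran from 5 to 8, with 0 higher in every setting. Calls over all genes were 188 higher and 410 lower, against 225 and 349 under median-of-ratios scaling, which moved the median of all genes from -0.10 to -0.0048, and 240 and 293 under quantile normalization. With the replicate number as a block 588 genes were called (186 higher, 402 lower) and no count above moved by more than 1.5 times; the numbers did not pair the libraries (correlations of -0.0523, 0.0815 and 0.00140). *PAX2* stayed lower and called in all 14 settings, from -1.87 to -1.20. Fits without a library used a filter of 2 libraries. At low TPM the depth limits what can be told: a member with no shPAX2 read has only a bound.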
